A study of Mus musculus with 47 samples.

Results

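Intestinal adenomas of mice with 2 PWD copies of chromosome 5 (C5) were compared with adenomas of mice with 1 such copy (C5F1). The comparison holds 6 of the 47 libraries of the series, chosen by strain and tissue label alone: 3 from C5 adenomas and 3 from C5F1 adenomas. C5 animals are labelled CSS C57BL/6 chr5 PWD, a consomic strain in which the chromosome 5 pair comes from the wild-derived PWD strain and the remaining chromosomes from C57BL/6 (B6). C5F1 animals are labelled as the F1 of C57BL/6 with that consomic strain and therefore hold 1 PWD and 1 B6 copy of that chromosome. Animals of both groups carried the Apc Min allele and were 15 to 19 weeks old, and no treatment is named for them.

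Further groups served as points of reference, each with 3 libraries. The same contrast was measured in intestinal mucosa of Apc Min mice of the C5 and C5F1 backgrounds (Min mucosa) and in mucosa of C5 and C5F1 mice with wild-type Apc (wild-type mucosa). Adenoma and Min mucosa of B6 and of B6xPWD mice (B6xPWD is an F1 cross of both whole genomes) were used for levels. Mucosa of B6, B6xPWD and PWD mice with wild-type Apc was also used for levels. PWD mucosa thus differs from the adenomas in tissue and Apc genotype as well as in background. All these reference groups have the age range given above for the adenoma groups. The labels state neither whether the 3 libraries of a group come from separate animals, nor their sex, nor the site along the gut, so p-values measure only the spread between these libraries. The reads were aligned to mm10, an assembly built from C57BL/6J, so that a lower level of a PWD allele and poorer alignment of its reads cannot be told apart.

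As background, Apc is the scaffold of the complex that marks beta-catenin for destruction. Min mice inherit a truncated Apc, and their intestinal adenomas arise where the remaining copy is lost and beta-catenin drives TCF-dependent transcription of Wnt targets. Adenoma cells usually keep crypt-like genes on and absorptive enterocyte genes low. PWD belongs largely to another house mouse subspecies than B6, and a consomic strain confines most of the inherited difference to 1 chromosome.

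The 6 libraries held 4064216 to 8416179 reads counted to genes. Rn45s, the ribosomal RNA precursor, took 28.8% to 57.7% of these, which left 1720480 (C5F1 replicate 1) to 5994521 (C5F1 replicate 2) counts for the other genes. Levels below are normalised CPM, counts scaled to a common library size, and differences are log2 values of C5 minus C5F1 with their standard errors. A gene was called where edgeR's quasi-likelihood test gave a Benjamini-Hochberg adjusted p under 0.05 over the 13657 genes tested. In bulk tissue, fewer cells of a type and less RNA per cell cannot be told apart.

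Of the 13657 genes, 139 (1.02%) were called, 83 higher (0.608%) and 56 lower (0.41%) in C5 adenomas. DESeq2 called 261, and edgeR on the compared groups alone 297, or 283 with the replicate block. Chromosome 5 held 25 of the 139 calls among 866 genes tested (2.89%), 9 higher (1.04%) and 16 lower (1.85%). The other chromosomes held 114 of 12740 (0.895%), 74 higher (0.581%) and 40 lower (0.314%). Most called genes thus lay off chromosome 5, as did most genes tested, while the share called was higher on chromosome 5. Whether C5 and C5F1 mice also differ by inheritance on other chromosomes was not tested. The median log2 difference was -0.02 for chromosome 5 genes and -0.00 over all genes, and 1897 genes had an unadjusted p under 0.05. The number of calls depended on single libraries. It was 17 without C5 replicate 2, 4 without C5 replicate 3, 59 without C5F1 replicate 1, 48 without C5F1 replicate 2 and 7 without C5F1 replicate 3, against 141 without C5 replicate 1. On chromosome 5 the counts in that order were 4, 2, 12, 7 and 3, against 20, and on the other chromosomes 13, 2, 47, 41 and 4, against 121. All 139 called genes kept their sign in each of these 6 fits. Bglap3 and Hpd were called in every one.

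The called genes outside chromosome 5 lay along the difference between mucosa and tumour. Libraries of B6 and B6xPWD mice, which are no part of the contrast, were used to describe this, and the description was chosen after values had been seen. All 74 genes higher in C5 adenomas had a lower mean in B6 adenomas than in B6 Min mucosa, and for 73 (98.6%) the libraries did not overlap. Over all genes tested, 48.9% had the lower mean in B6 adenomas and 20.5% did so without overlap. In B6xPWD mice all 74 again had the lower mean in adenomas, 68 (91.9%) without overlap, beside 47.5% and 14.8% of all genes. The 40 genes lower in C5 adenomas went the other way. All 40 had a higher mean in B6 adenomas than in B6 Min mucosa and 35 (87.5%) did not overlap, beside 51.1% and 21.2% of all genes. In B6xPWD mice the mean was higher in adenomas for 39 (97.5%), 28 (70%) of them without overlap, beside 52.4% and 13% of all genes. Of the 9 higher chromosome 5 genes, 9 also had the lower mean in B6 adenomas than in mucosa, whereas 11 of the 16 lower chromosome 5 genes (68.8%) had the higher mean in B6 adenomas.

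C5 adenomas still differed from their own mucosa in the same sense. All 74 higher genes had a lower mean in C5 adenomas than in C5 Min mucosa, 46 of them without overlap, beside 50.5% and 9.65% of all genes. Of the 40 lower genes 35 had a higher mean in C5 adenomas, 24 without overlap, beside 49.5% and 12.6% of all genes. In C5F1 tissue the counts were 74 of 74 with 73 without overlap, beside 48.3% and 18.9%, and 40 of 40 with 38 without overlap, beside 51.7% and 21.3%. These counts use libraries of the contrast itself and are a description.

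In mucosa the same contrast gave few calls. Some mucosa libraries were shallower than every one of the 6 adenoma libraries. Without Rn45s, replicate 1 held 846520 counts in C5F1 Min mucosa, 1128687 in C5 wild-type mucosa and 1507196 in C5F1 wild-type mucosa. The part of depth in the number of calls was not tested. In Min mucosa 5 genes (0.0366%) were called, and 393 had an unadjusted p under 0.05: Bglap3 was higher and Hpd, Ocm, Rundc3b and Zan were lower in C5 (0.00732% of genes higher, 0.0293% lower). Chromosome 5 held 4 of these calls, all lower (0.462% of its 866 genes), and the other chromosomes 1 (0.00785%, Bglap3, higher). In wild-type mucosa 9 genes (0.0659%) were called, with 1077 at an unadjusted p under 0.05. Of these, 1 was higher (0.00732%), again Bglap3, and 8 were lower (0.0586%). Chromosome 5 held 6 calls, all lower (0.693%), and the other chromosomes 3 (0.0235%), 1 higher (0.00785%) and 2 lower (0.0157%). The wild-type count was 3 or 4 without any C5 library or C5F1 replicate 1 or 2, and 6 without C5F1 replicate 3. Of the 74 other-chromosome genes higher in C5 adenomas, 46 had a difference above 0 in Min mucosa, and their median log2 difference was 0.97 in adenoma and 0.08 in Min mucosa. For the 40 lower genes 26 were below 0 in Min mucosa, with medians of -1.60 in adenoma and -0.09 in Min mucosa. On chromosome 5 the 9 higher genes had medians of 1.25 in adenoma and 0.30 in Min mucosa with 8 in the same direction, and the 16 lower ones -1.57 (-1.70 with the 3 genes at 0 in C5 at their bound) and -0.54 with 13 in the same direction, 4 of which were called. In wild-type mucosa 7 of the 9 higher and 7 of the 16 lower chromosome 5 genes kept the direction, with medians of 0.32 and 0.01, and 42 of the 74 and 22 of the 40 genes elsewhere, with medians of 0.02 and -0.07. Whether the gene classes differ in this was not tested.

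**Figure D1:**
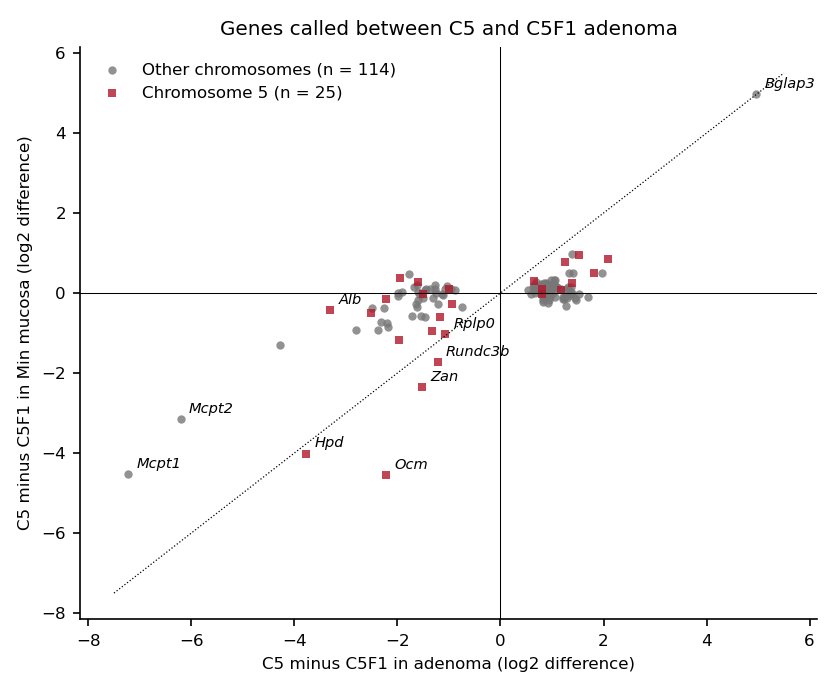
Log2 difference of C5 minus C5F1 in adenoma (horizontal axis) and in Min mucosa (vertical axis) for the 139 genes called in adenoma; red squares are the 25 chromosome 5 genes, grey points the 114 others, and the dotted line marks equal differences. Most points off chromosome 5 lie near 0 on the vertical axis, while Bglap3 lies near the line at 4.96 in adenoma and 4.97 in Min mucosa.

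Whether the tissue itself changed the contrast was tested as the difference between adenoma and Min mucosa. No gene was called when libraries were treated as unpaired (0%, smallest adjusted p 0.613), with 808 genes at an unadjusted p under 0.05 and 26 calls by DESeq2. Adenoma and mucosa libraries with the same number varied together within a background, with correlations of 0.377 to 0.455 in C5 and 0.189 to 0.386 in C5F1. With that pairing as a block, 634 of 13086 genes (4.84%) were called, 497 with a higher (3.8%) and 137 with a lower (1.05%) C5 minus C5F1 difference in adenoma than in mucosa. The count was 336 without C5 pair 2, 391 without C5F1 pair 2 and 362 without C5F1 pair 3, and 437 to 747 without each of the other pairs. Glrx, a glutaredoxin, and Cds1, a CDP-diacylglycerol synthase on chromosome 5, had the smallest unadjusted p without pairing. Glrx measured 69.5, 84.7 and 76.5 CPM in C5 adenomas and 41.9, 48.6 and 39.4 CPM in C5F1 adenomas, and Cds1 158, 151 and 155 CPM against 97.1, 98.2 and 69.1 CPM. The C5 libraries were all above the C5F1 libraries for both genes. The paired difference between tissues was 0.998 ± 0.168 for Glrx (edgeR, adjusted p 0.0017) and 0.86 ± 0.18 for Cds1 (adjusted p 0.00699).

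Hpd, the hydroxyphenylpyruvate dioxygenase of tyrosine breakdown, lies on chromosome 5 and was chosen for mention after its values were seen. No read was counted in the 3 C5 adenomas, against 5.53, 2.91 and 3.86 CPM in C5F1 adenomas. The level in C5 was at least 23.03-fold lower when set against a floor of 3 counts over the group (edgeR, adjusted p 1.55e-06). PWD mucosa also had 0 in all 3 libraries, whereas B6 adenomas had 5.13 to 6.25 CPM and B6xPWD adenomas 1.71 to 3.16 CPM. The absence of reads from C5 adenomas and PWD mucosa matched the label of 2 PWD copies, while the C5F1 level of replicate 1 lay within the B6 range and does not show the number of copies.

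The largest rises on chromosome 5 included 3 genes of the Ugt2 and Sult1 clusters. Ugt2b5 and Ugt2b36 encode UDP-glucuronosyltransferases, which attach glucuronic acid to steroids, bile acids and drugs. Ugt2b5 (mm10 chr5:87124946-87140340) measured 4.43, 4.63 and 8.22 CPM in C5 adenomas and 1.45, 1.12 and 0.826 CPM in C5F1 adenomas (2.09 ± 0.48, edgeR adjusted p 0.0271). Ugt2b36 (chr5:87065927-87092555) measured 9.79, 6.61 and 12.7 CPM against 1.16, 2.83 and 3.03 CPM (1.81 ± 0.40, adjusted p 0.0222). Every C5 library lay above every C5F1 library for both, which the choice of the largest changes required of each gene it named. The genes are close relatives, so reads could have been split between them in counting. Their promoters are shown because the members moved together. RefSeq windows from 250 bases before to 50 after the start (GRCm38.p6, both on the minus strand, Ugt2b5 at chr5:87140291-87140590 and Ugt2b36 at chr5:87092506-87092805) follow on the gene strand, with capitals for exact runs of 15 or more letters that both windows hold.
Ugt2b5: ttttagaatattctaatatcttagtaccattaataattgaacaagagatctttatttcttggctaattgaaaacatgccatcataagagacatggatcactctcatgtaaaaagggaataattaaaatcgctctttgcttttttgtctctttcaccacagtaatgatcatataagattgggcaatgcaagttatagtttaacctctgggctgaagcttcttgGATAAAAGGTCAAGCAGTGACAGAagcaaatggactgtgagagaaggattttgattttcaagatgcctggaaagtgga
Ugt2b36: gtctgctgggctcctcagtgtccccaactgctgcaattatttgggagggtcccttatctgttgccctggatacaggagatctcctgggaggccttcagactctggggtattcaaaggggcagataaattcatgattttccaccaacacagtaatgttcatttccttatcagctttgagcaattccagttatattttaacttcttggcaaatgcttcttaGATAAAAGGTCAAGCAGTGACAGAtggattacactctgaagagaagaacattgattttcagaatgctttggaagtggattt
The longest shared run has 24 letters and ends close before the start site. With both strands searched, it occurs in 3 of 32851 RefSeq windows (0.00913%), those of Ugt2b5, Ugt2b36 and Ugt2b37. The last of these had too few counts to be tested.

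Sult1b1, a cytosolic sulfotransferase (chr5:87513327-87538195), measured 141, 122 and 132 CPM in C5 adenomas and 66.3, 60.9 and 48.3 CPM in C5F1 adenomas (1.17 ± 0.24, edgeR adjusted p 0.0148). Slc5a6, the sodium-dependent transporter of biotin and pantothenate, measured 23.6, 26.3 and 35.8 CPM against 11.6, 13.2 and 6.88 CPM (1.40 ± 0.33, adjusted p 0.0313). Slc46a3, a lysosomal transporter, measured 28.0, 63.3 and 36.9 CPM against 20.9, 21.7 and 10.6 CPM (1.25 ± 0.32, adjusted p 0.0409). The libraries of the groups did not overlap for any of these 3 genes. The unnamed transcript 1700023E05Rik measured 14.7, 16.2 and 13.1 CPM against 4.65, 5.66 and 4.27 CPM (1.52 ± 0.34, adjusted p 0.0233), and it was at 0 to 0.19 CPM in B6 adenomas but at 13.1 to 16.2 CPM in PWD mucosa. Of the Ugt2 and Sult1 clusters together, 3 of 7 tested genes rose (1.04% of chromosome 5 genes rose) and none fell, with a median log2 difference of 1.17 and all 7 estimates above 0. All 3 were called without C5 replicate 1, Ugt2b36 without C5 replicate 2, none without C5 replicate 3, Sult1b1 without C5F1 replicate 1, and none without C5F1 replicate 2 or 3. Slc5a6, Slc46a3 and 1700023E05Rik were called without C5 replicate 1 and not without any other single library. The Cyp3a cluster, drug-oxidising cytochromes whose near copies can share reads, had no call among 4 tested genes at a median of 1.43. By the paired difference between tissues 3 of 3 were called higher, beside 3.8% of all genes. Cyp3a11 ranged widely, at 46.1, 30.9 and 148 CPM in C5 adenomas and 8.14, 27.4 and 6.75 CPM in C5F1 adenomas.

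The largest falls on chromosome 5 included Alb, Nptx2 and Fzd10. Alb, serum albumin, measured 1.98, 0.991 and 0.422 CPM in C5 adenomas and 15.7, 14.5 and 14.3 CPM in C5F1 adenomas (-3.30 ± 0.53, edgeR adjusted p 0.00324). Nptx2, a neuronal pentraxin, measured 3.15, 6.28 and 5.48 CPM against 12.5, 29.4 and 27.9 CPM (-2.22 ± 0.45, adjusted p 0.0139). Fzd10, a Frizzled receptor of Wnt ligands, measured 6.996, 5.78 and 2.32 CPM against 18.3, 21.3 and 23.8 CPM (-1.98 ± 0.44, adjusted p 0.0222). In all 3 genes every C5 library was below every C5F1 library. Spp1, which encodes osteopontin, measured 3.03, 2.64 and 1.05 CPM against 8.43, 10.4 and 10.5 CPM (-1.95 ± 0.42, adjusted p 0.0179). Tmem119, a membrane protein known from osteoblasts and microglia, measured 8.28, 9.42 and 4.01 CPM against 14.3, 18.04 and 17.9 CPM (-1.17 ± 0.29, adjusted p 0.0358). Rundc3b fell by 1.22 on the log2 scale (SE 0.24, adjusted p 0.0106) and also in Min mucosa, by 1.74 (adjusted p 0.000211). For Alb the difference was -0.43 in Min mucosa and 1.61 in wild-type mucosa, and neither was called, but the gene was near the floor in both. In Min mucosa it was at 0 CPM in every C5 library and at 0 to 0.123 CPM in C5F1. The wild-type difference rested on C5 replicate 3, at 2.06 CPM, beside 0 and 0.161 CPM in C5 replicates 1 and 2. Alb thus gives no measure of the contrast in mucosa. Rplp0, a protein of the ribosomal stalk chosen for mention after its values were seen, measured 89.4, 73.0 and 64.3 CPM against 188, 160 and 133 CPM (-1.08 ± 0.22, adjusted p 0.0147). It was at 70.6 to 76.3 CPM in PWD mucosa. Alb lost its call without C5 replicate 3 alone (adjusted p 0.0665), and Rundc3b without C5 replicate 2 or 3 or C5F1 replicate 2. Fzd10 and Spp1 kept theirs without C5 replicate 1 or C5F1 replicate 1 only, Nptx2 without C5F1 replicate 1 only, and Rplp0 without C5 replicate 1 or C5F1 replicate 2 only. Tmem119 lost its call without each of the 6 libraries in turn.

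The number of PWD copies orders B6, C5F1 and C5 adenomas as 0, 1 and 2. For 21 of the 25 called chromosome 5 genes the C5F1 mean lay between those of B6 and C5; the exceptions were Dmp1, Spp1, D930016D06Rik and Gltp. Alb averaged 50.3 CPM in B6, 14.9 CPM in C5F1 and 1.13 CPM in C5 adenomas, and Nptx2 151, 23.3 and 4.97 CPM in the same order. Fzd10 averaged 27.5, 21.2 and 5.03 CPM, so that most of its fall lay between 1 and 2 copies. Sult1b1 averaged 23.8, 58.5 and 131 CPM, and Rplp0 315, 160 and 75.6 CPM. The order of these means was not tested, and the C5F1 mean is shared between both steps. The 25 genes were picked by their difference between C5F1 and C5, and the share of all genes in this order was not counted. Some called genes off chromosome 5 had the same order, so it was not particular to that chromosome. Nkd1 averaged 105, 64.1 and 24.7 CPM and Dpp4 90.0, 151 and 432 CPM, whereas the means of Mcpt1, at 53.1, 127 and 0.626 CPM, did not follow it. Mcpt1 measured 6.52, 26.4 and 126 CPM in the B6 adenomas and 176, 23.3 and 182 CPM in the C5F1 adenomas. Those 2 groups overlapped, so the order of their means is not settled.

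**Figure D2:**
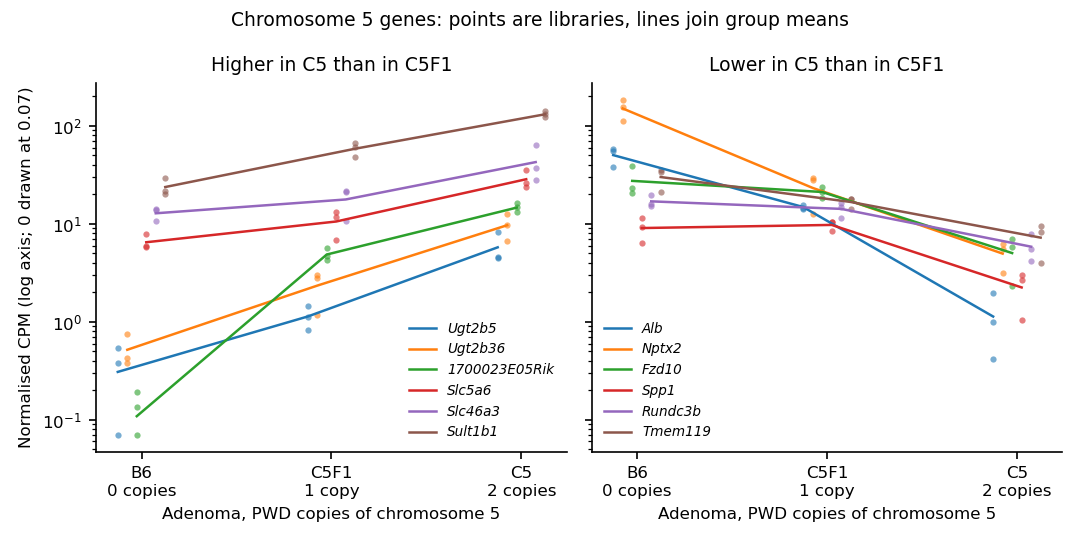
Normalised CPM on a log axis in B6, C5F1 and C5 adenomas, which hold 0, 1 and 2 PWD copies of chromosome 5, for 6 higher genes (left) and 6 lower genes (right) of that chromosome; points are libraries, lines join means, and values of 0 are drawn at the bottom. Alb runs down from 50.3 to 1.13 CPM over the 3 groups and Sult1b1 up from 23.8 to 131 CPM, while Spp1 stays at 9.06 and 9.75 CPM in B6 and C5F1.

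A departure of C5F1 from the log midpoint of B6 and C5 adenomas was called for 6 genes (0.0439%), with 838 at an unadjusted p under 0.05. These 6 genes are named because the count is small. Hpd was at 0 in every C5 adenoma and Mmrn1 in every B6 adenoma, so their log midpoint is set by the prior count and no distance from it is given. Pla2g4c (5.45), Gsdmc4 (2.51) and Gnal (1.01) were above the midpoint, as were the fits of Hpd and Mmrn1 (0.0366%). Pla2g4c, a cytosolic phospholipase, averaged 3.15 CPM in B6 adenomas, measured 753, 16.02 and 84.5 CPM in the C5F1 libraries and averaged 13.96 CPM in C5. Gsdmc4, a gasdermin, averaged 14.6 CPM in B6 adenomas, measured 309, 45.2 and 96.9 CPM in the C5F1 libraries and averaged 45.2 CPM in C5. C5F1 replicate 1 was far above the other 2 C5F1 libraries in both genes. Bglap3 was below the midpoint, at -1.79 (0.00732%). Hpd lies on chromosome 5 (0.115% of its genes) and the other 5 calls elsewhere (0.0392%, 0.0314% above and 0.00785% below). There was 1 call without B6 replicate 1 and 10 without C5F1 replicate 2, 3 without B6 replicate 2, any C5 library, C5F1 replicate 1 or C5F1 replicate 3, and 7 without B6 replicate 3.

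Bglap3, a gene of the osteocalcin family on chromosome 3 (chr3:88368616-88372741), had the largest rise off chromosome 5. It measured 75.2, 75.7 and 95.9 CPM in C5 adenomas and 2.91, 2.61 and 1.65 CPM in C5F1 adenomas, 31.0-fold higher (4.96 ± 0.29, edgeR adjusted p 4.71e-13). Min mucosa gave 78.1, 111 and 124 CPM in C5 against 3.04, 3.94 and 2.10 CPM in C5F1, and wild-type mucosa 92.3, 157 and 157 CPM against 3.38, 4.28 and 2.01 CPM. The groups stood far apart in all 3 tissues, and the difference between adenoma and Min mucosa was 0.08 (adjusted p 0.879 with pairing). PWD mucosa had 0 in every library and B6 tissue 0.43 to 2.6 CPM. The C5F1 level was thus nearer to that of B6 than to that of C5, and B6xPWD tissue was at 1.89 to 4.21 CPM. C5 and PWD mice both hold 2 PWD copies of chromosome 5, yet stood at opposite ends of the range. What sets the level of this chromosome 3 gene was not tested. The gene has 3 RefSeq start windows (GRCm38.p6, minus strand), of which the first (chr3:88372692-88372991) and last (chr3:88369782-88370081) are shown because they repeat each other. Capitals again mark exact shared runs of 15 or more letters, 108 letters in each window.
Bglap3 window 1: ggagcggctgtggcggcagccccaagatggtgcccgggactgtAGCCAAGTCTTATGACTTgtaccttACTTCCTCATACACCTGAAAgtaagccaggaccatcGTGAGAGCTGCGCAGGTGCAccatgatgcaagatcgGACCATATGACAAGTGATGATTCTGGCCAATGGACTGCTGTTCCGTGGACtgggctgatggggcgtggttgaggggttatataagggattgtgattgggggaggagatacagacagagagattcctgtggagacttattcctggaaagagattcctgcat
Bglap3 window 3: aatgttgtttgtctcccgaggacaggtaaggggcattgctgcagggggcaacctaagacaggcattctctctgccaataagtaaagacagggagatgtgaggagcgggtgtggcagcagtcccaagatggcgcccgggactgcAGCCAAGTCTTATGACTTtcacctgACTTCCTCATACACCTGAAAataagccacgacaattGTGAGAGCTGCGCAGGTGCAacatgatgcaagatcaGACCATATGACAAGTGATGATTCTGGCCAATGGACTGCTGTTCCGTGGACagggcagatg
The longest run has 50 letters and, with both strands searched, occurs in 2 of 32851 windows (0.00609%), both of Bglap3. Reads from sequence repeated in this way, or shared with the paralogs Bglap and Bglap2, may not have been assigned uniquely.

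**Figure D3:**
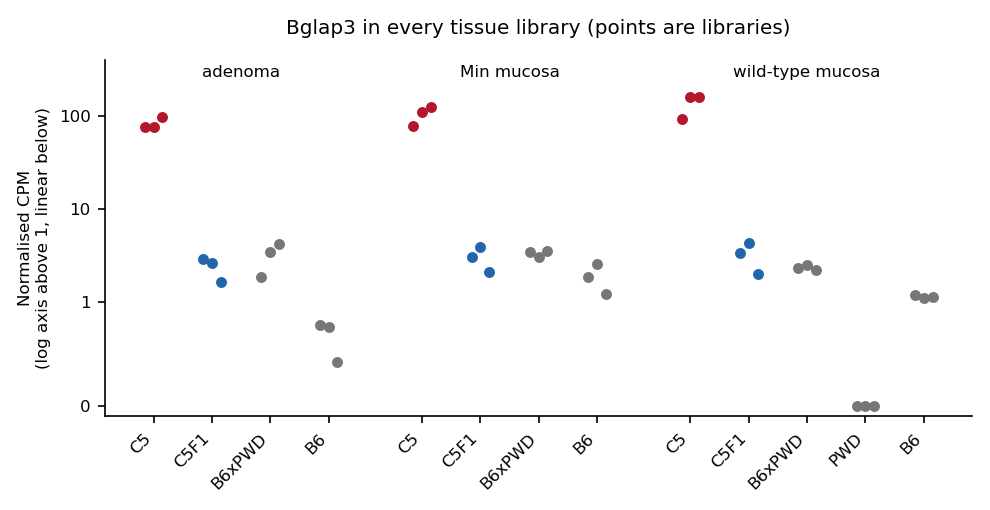
Bglap3 in normalised CPM (symmetric log axis) in each tissue library by background and tissue; points are libraries. C5 adenoma, Min mucosa and wild-type mucosa lie between 75.2 and 157 CPM, and the C5F1 libraries between 1.65 and 4.28 CPM.

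Of 26 listed and tested Wnt targets 4 fell (0.41% of all genes fell) and none rose, the median log2 difference was -0.71 beside -0.00 over all genes, and 1 estimate was above 0. In 17 of the 26 the C5 libraries all lay below the C5F1 libraries, which was so for 11.6% of all genes. Nkd1, a feedback inhibitor of Dishevelled, measured 33.4, 19.7 and 21.1 CPM in C5 adenomas and 51.2, 61.6 and 79.4 CPM in C5F1 adenomas (-1.36 ± 0.32, edgeR adjusted p 0.0312). Tcf7, a TCF transcription factor, measured 15.2, 13.2 and 9.49 CPM against 24.1, 29.96 and 29.6 CPM (-1.12 ± 0.21, adjusted p 0.00985). Prox1, a homeobox factor turned on in intestinal adenomas, measured 41.9, 23.8 and 25.9 CPM against 50.3, 66.9 and 84.1 CPM (-1.13 ± 0.28, adjusted p 0.0387). Each C5 library lay below each C5F1 library in these 3 genes, and Fzd10, described above, was the fourth. Notum, a secreted Wnt deacylase, measured 33.1, 13.5 and 9.49 CPM against 54.7, 57.0 and 54.4 CPM and missed the threshold (-1.52 ± 0.40, adjusted p 0.0544).

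Not every Wnt target moved alike. Axin2, the common feedback target, measured 65.8, 54.7 and 54.4 CPM in C5 adenomas and 73.9, 61.8 and 84.9 CPM in C5F1 adenomas (-0.33, edgeR adjusted p 0.632), and Lgr5, the stem cell receptor, 20.5, 19.99 and 20.5 CPM against 24.4, 19.1 and 33.0 CPM (-0.32, adjusted p 0.595). Both pairs of groups overlapped. The summed level of the 26 genes was 643 to 863 CPM in C5 and 1116 to 1274 CPM in C5F1 adenomas, but 378 to 426 CPM against 358 to 455 CPM in Min mucosa, where the median difference was 0.07. In both backgrounds every adenoma library had a higher sum than every Min mucosa library, as their tissue labels imply. With pairing, 9 of the 26 had a called lower difference in adenoma than in mucosa, Nkd1, Tcf7 and Prox1 among them (1.05% of all genes). All 4 calls were kept without C5 replicate 1 or C5F1 replicate 1, Tcf7 alone without C5 replicate 2 or C5F1 replicate 2, and none without C5 replicate 3 or C5F1 replicate 3, where the adjusted p reached 0.292. Apc itself measured 138, 135 and 174 CPM against 125, 117 and 136 CPM (0.24, adjusted p 0.608), and none of 11 genes of the Apc and destruction complex list was called, with a median of -0.06. The 14 intestinal stem cell genes had no call and a median of -0.09, and the 22 genes of cell cycle and DNA replication none and a median of -0.23. Pla2g2a, the secreted phospholipase known as a modifier of Min adenomas, measured 52.1, 31.7 and 38.6 CPM against 66.0, 82.3 and 81.2 CPM (-0.90, adjusted p 0.185).

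**Figure D4:**
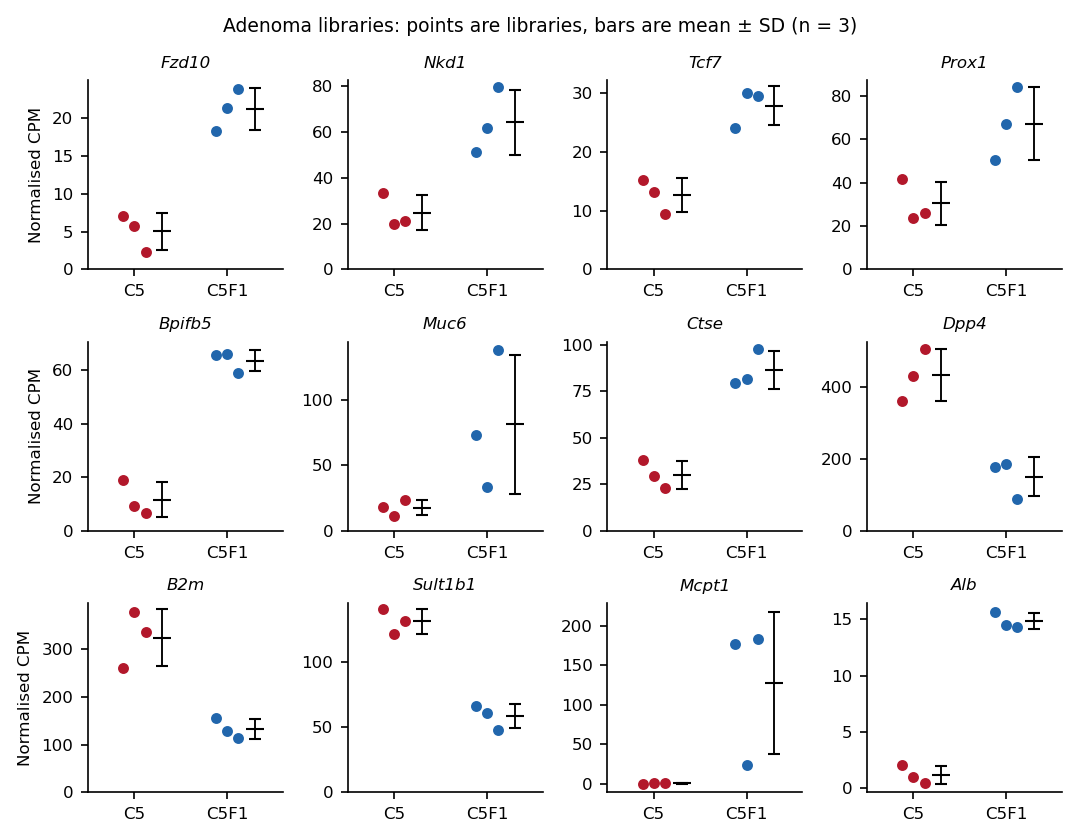
Normalised CPM in the 3 C5 (left) and 3 C5F1 (right) adenoma libraries for 12 genes, each panel with its own axis; points are libraries and bars the mean ± SD (n = 3). The groups do not overlap in Tcf7, with 9.49 to 15.2 CPM in C5 and 24.1 to 29.96 CPM in C5F1, nor in Dpp4, with 360 to 505 CPM against 89.3 to 186 CPM.

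Of 9 tested gastric-type genes, which intestinal tumours can switch on, 3 fell (0.41% of all genes fell) and none rose, and all 9 estimates were below 0 at a median of -1.41. Bpifb5, of the BPI-fold family of secreted proteins, measured 19.0, 9.25 and 6.75 CPM in C5 adenomas and 65.7, 65.9 and 58.9 CPM in C5F1 adenomas (-2.38 ± 0.49, edgeR adjusted p 0.0202). Muc6, the gland mucin of the stomach, measured 18.1, 11.6 and 23.2 CPM against 72.7, 33.3 and 138 CPM (-2.19 ± 0.51, adjusted p 0.0285). Ctse, the aspartic protease cathepsin E, measured 38.0, 29.6 and 22.8 CPM against 79.4, 81.3 and 97.9 CPM (-1.50 ± 0.36, adjusted p 0.0329). The groups did not overlap in these genes. The 14 listed members summed to 114 to 186 CPM in C5 and 334 to 503 CPM in C5F1 adenomas, but to 2.93 to 8.62 CPM and 4.56 to 8.63 CPM in Min mucosa, so these genes were low outside the tumours. Bpifb5 and Ctse stayed called without C5 replicate 1 and Muc6 without C5F1 replicate 2, and none did without C5 replicate 2 or 3 or C5F1 replicate 1 or 3 (adjusted p up to 0.303). DESeq2 called Ctse alone of the 3.

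Fetal and regenerative genes and matrix remodelling genes had 1 call each among 18 tested in each list (0.41% of all genes fell). It was the same gene, Spp1, and the list medians were -0.33 and -0.50. Spp1 was called without C5 replicate 1 or C5F1 replicate 1 and not without any of the other 4 libraries. Off chromosome 5, Arg1, the urea-forming arginase, measured 1.87, 2.97 and 0 CPM in C5 adenomas and 16, 13.3 and 11.7 CPM in C5F1 adenomas (-2.80 ± 0.53, edgeR adjusted p 0.00985). Ppp2r2b, a regulatory subunit of protein phosphatase PP2A, measured 1.40, 0.33 and 1.05 CPM against 2.91, 8.12 and 8.67 CPM (-2.49 ± 0.47, adjusted p 0.00985). Arg1 lost its call without C5 replicate 3 (0.0874), and Ppp2r2b without C5 replicate 2 (0.061) or 3 (0.0874) or C5F1 replicate 3 (0.0805).

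Of 25 enterocyte genes, which serve digestion and absorption, 1 rose (0.608% of all genes rose), none fell, all 25 estimates were above 0 and the median was 0.90. In 17 the C5 libraries all lay above the C5F1 libraries, beside 13.1% of all genes. Dpp4, a brush border peptidase, measured 360, 430 and 505 CPM in C5 adenomas and 177, 186 and 89.3 CPM in C5F1 adenomas (1.52 ± 0.28, edgeR adjusted p 0.00943), and it lost its call without C5 replicate 3 (0.0874) or C5F1 replicate 3 (0.0982). The 25 genes summed to 15080 to 21000 CPM in C5 and 7362 to 10830 CPM in C5F1 adenomas. In Min mucosa the sums were 18920 to 30860 CPM in C5 and 27810 to 33910 CPM in C5F1, with a median difference of -0.31. With pairing, 23 of the 25 had a called higher difference in adenoma than in mucosa, beside 3.8% of all genes. Lct, the lactase of the proximal small intestine, ranged from 2.31 to 450 CPM within C5 adenomas and from 8.43 to 38.4 CPM within C5F1 adenomas.

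Among markers of gut region, whose part in the enterocyte result was not tested, 1 of 9 distal ileum genes rose (0.608% of all genes rose), Amn, the membrane partner of cubilin, at 36.2, 26.6 and 45.1 CPM in C5 adenomas and 10.8, 19.8 and 10.3 CPM in C5F1 adenomas (1.34 ± 0.34, edgeR adjusted p 0.0431). All 9 estimates were above 0, with a median of 1.199. Of 5 colon genes 1 rose, the chloride exchanger Slc26a3 (1.01 ± 0.26, adjusted p 0.0488), and none of 10 proximal small intestine genes did, at a median of 0.55. Amn was called without C5F1 replicate 2 and not without any other single library, and Slc26a3 lost its call without each of the 6.

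Of 14 MHC class I genes, which present peptides to T cells, 1 rose (0.608% of all genes rose), all 14 estimates were above 0 and the median was 0.67. B2m, the shared light chain, measured 261, 377 and 335 CPM in C5 adenomas and 156, 130 and 113 CPM in C5F1 adenomas (1.28 ± 0.27, edgeR adjusted p 0.0163), with no overlap. It lost its call without C5 replicate 2 (0.0684) or 3 (0.09) and without C5F1 replicate 2 (0.068) or 3 (0.187). None of 8 MHC class II genes was called, at a median of 0.99. The invariant chain Cd74 measured 507, 820 and 589 CPM against 399, 314 and 213 CPM (adjusted p 0.476). With pairing, 7 of 14 class I and 6 of 7 class II genes had a called higher difference in adenoma than in mucosa, beside 3.8% of all genes. None of 26 interferon response genes was called, at a median of 0.41.

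Among secretory cells, none of the 18 listed Paneth cell genes was called (median 0.46). Lyz1, the Paneth cell lysozyme, measured 2454, 1518 and 3766 CPM in C5 adenomas and 1295, 1070 and 1079 CPM in C5F1 adenomas (edgeR adjusted p 0.101). Further genes were higher off chromosome 5. The transcript 2010106E10Rik measured 74.9, 63.6 and 110 CPM against 29.1, 30.03 and 17.2 CPM (1.69 ± 0.39, adjusted p 0.0271). Fas, the death receptor, measured 6.65, 5.12 and 5.48 CPM against 1.45, 2.46 and 1.51 CPM (1.46 ± 0.37, adjusted p 0.0402). Lrrc19, a membrane protein with leucine-rich repeats, measured 40.0, 51.0 and 58.8 CPM against 16.6, 22.4 and 14.9 CPM (1.44 ± 0.30, adjusted p 0.0147). Lrrc19 lost its call without C5 replicate 2 or 3 or C5F1 replicate 1 or 3. The call of 2010106E10Rik held without C5 replicate 1 only, and that of Fas in none of the 6 fits.

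**Figure D5:**
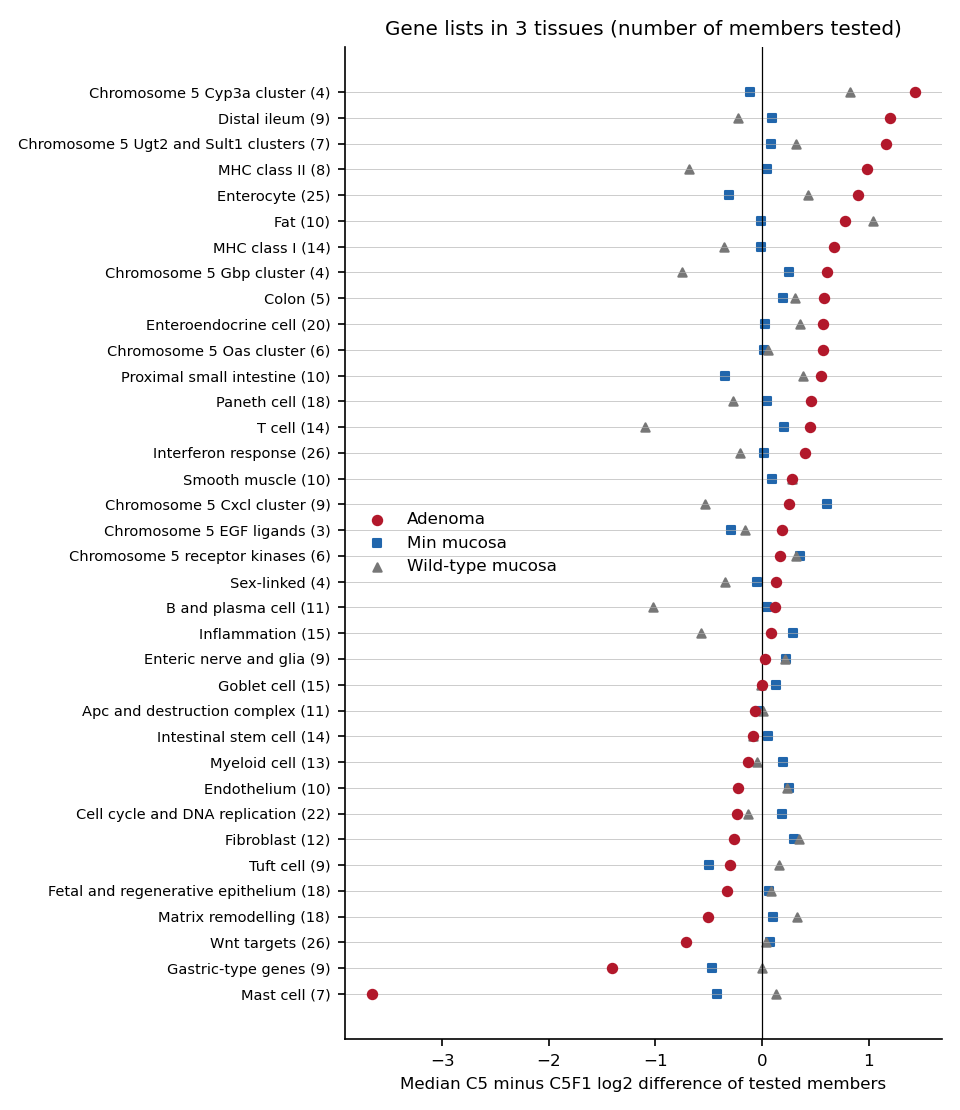
Median log2 difference of C5 minus C5F1 over the tested members of each gene list with at least 3, in adenoma, Min mucosa and wild-type mucosa. In adenoma the enterocyte median is 0.90 and that of Wnt targets -0.71, while in Min mucosa they are -0.31 and 0.07.

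Of 7 tested mast cell genes 3 fell (0.41% of all genes fell) and none rose. The fitted median was -3.66, or -4.21 with the 3 members at 0 in every C5 library set to their bound against a floor of 3 counts. Mcpt1, a protease of mucosal mast cells, measured 0.117, 0.496 and 1.26 CPM in C5 adenomas and 176, 23.3 and 182 CPM in C5F1 adenomas (-7.23 ± 1.37, edgeR adjusted p 0.00985). Its neighbour Mcpt2 measured 0.466, 0.661 and 1.26 CPM against 114, 12.2 and 108 CPM (-6.21 ± 1.22, adjusted p 0.0125). C5F1 replicate 2 was the lowest of its group in both and still above every C5 library. In Min mucosa Mcpt1 measured 0, 0.733 and 0 CPM in C5 and 13.7, 5.03 and 21.3 CPM in C5F1 (-4.53). Mcpt2 differed there by -3.15, again with no overlap, and neither gene was called in Min mucosa. By the paired difference between tissues 0 of 4 tested mast cell genes were called, beside 4.84% of all genes. Cpa3, the mast cell carboxypeptidase, had 2 reads over the C5 libraries and 142 over the C5F1 libraries (adjusted p 0.0439), a C5F1 to C5 ratio of 57.0 (95% interval 15.5 to 475.5, counting error only). Kit, the stem cell factor receptor that interstitial cells of Cajal also express, measured 45.8, 46.6 and 42.2 CPM against 39.8, 32.2 and 38.96 CPM. The 9 listed markers summed to 44.7 to 48.1 CPM in C5, where 4 of the 9 (Mcpt4, Cma1, Tpsb2 and Tpsab1) were at 0 in every library, and to 71.1 to 361 CPM in C5F1 adenomas. Without C5 replicate 1 or C5F1 replicate 1, Mcpt1 and Mcpt2 stayed called, without C5F1 replicate 2 all 3, and without C5 replicate 2 or 3 or C5F1 replicate 3 none.

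Markers of other cell types gave few calls. Npy2r, a receptor for peptide YY, fell as the single call among 20 enteroendocrine genes (0.41% of all genes fell). It measured 0.35, 0.33 and 0.211 CPM in C5 adenomas and 1.16, 2.53 and 2.34 CPM in C5F1 adenomas (-1.98 ± 0.39, edgeR adjusted p 0.0106). Of the fits without 1 library, it was called without C5 replicate 1 or C5F1 replicate 1 alone. The rest of the list mostly went the other way, with a median of 0.58 and 18 of 20 estimates above 0. In 9 genes the C5 libraries all lay above the C5F1 libraries, beside 13.1% of all genes. The list summed to 146 to 179 CPM in C5 and 89.1 to 99.9 CPM in C5F1 adenomas. Goblet cell genes had a median of 0.00 over 15 tested, tuft cell genes -0.30 over 9, T cell genes 0.45 over 14, B and plasma cell genes 0.12 over 11, myeloid genes -0.13 over 13 and inflammation genes 0.09 over 15, with no call in any of these lists. Fibroblast genes (median -0.27 over 12) summed to 648 to 984 CPM in C5 and 986 to 1167 CPM in C5F1 adenomas, and smooth muscle genes (median 0.28 over 10) to 657 to 1473 CPM and 676 to 929 CPM. The fibroblast sums did not overlap, nor did those of the enteroendocrine list. Tuft cell sums did not overlap either, at 253 to 277 CPM in C5 and 303 to 390 CPM in C5F1 adenomas. The part of these cell types in the results was not tested. The smooth muscle sums overlapped, and neither the fibroblast nor the smooth muscle list had a call. Endothelial, enteric nerve and glia, pancreatic, fat, erythroid and sex-linked lists had no call either.

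Chromosome 5 also carries clusters of immune and growth factor genes, and none of these was called. The list of EGF ligands had 3 tested genes, the Cxcl cluster 9 (smallest adjusted p 0.0732, edgeR), the Gbp cluster 4, the Oas cluster 6 and the receptor kinases 6. Their medians ran from 0.17 for the receptor kinases to 0.61 for the Gbp cluster. Oasl1, of the oligoadenylate synthetase family, measured 36.6, 39.3 and 28.0 CPM in C5 adenomas and 20.7, 22.0 and 15.7 CPM in C5F1 adenomas (0.83 ± 0.26, adjusted p 0.119). Ereg, the ligand epiregulin, measured 19.1, 19.3 and 49.1 CPM against 6.98, 26.8 and 40.2 CPM, with overlapping groups.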

How the data were processed

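RNA from mouse intestinal tissue was depleted of ribosomal RNA with RiboMinus and sequenced as single-end libraries on a Genome Analyzer IIx, per the labels' protocols. The deposited values are raw counts of reads per gene, made by the authors with BWA and HTSeq on mm10, per the submitters' processing notes; versions, annotation and strand setting are not given in the sources used here. HTSeq's summary categories (5 rows, 41.9% to 53.9% of all counts in the 6 libraries) were left out. Of 24062 genes, 22547 matched RefSeq by symbol, 1351 by synonym and 164 not at all; 51 tested genes had no position. None of the 6 pairs within the 2 adenoma groups was a copy (chi-square per degree of freedom 8.02 to 105).

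edgeR 4.0.16 in R 4.3.3 fitted the quasi-likelihood model to all 39 tissue libraries in 13 groups with TMM scaling, filterByExpr (minimum count 10, minimum total 15) and a prior count of 2, which left 26 residual degrees of freedom. The step was tested on simulated data. The standard error is the log2 difference divided by the root of F. Alternatives were DESeq2 1.42.0, RLE scaling, TMM without chromosome 5, no Rn45s, no filter, the compared groups alone, a block for the replicate number and leaving out each library. Same-numbered C5 and C5F1 adenomas had correlations of 0.126, 0.006 and 0.222. For each C5 adenoma the best partner among the C5F1 adenomas still had the same number. Adenoma and Min mucosa of a background had 0.377 to 0.455 in C5 and 0.189 to 0.386 in C5F1, a range that overlaps the former. The interaction is also given with pairing within a background, a choice made from these data and not from the labels. Whether libraries of the same number share spread across backgrounds was not tested.

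Genes named are the 6 largest called differences per direction on and off chromosome 5 with no overlap and a mean of at least 5 CPM in the higher group, up to 4 called members per list, or 2 where a list had none, and a few fixed genes; 1 gene that this rule names is not reported here. Comparisons with B6 and B6xPWD tissue, and genes outside this rule (Hpd, Rplp0 and those of the midpoint), were added after values had been seen. The members and lists were chosen with earlier results of these data known.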

Additional observations from a re-analysis of the deposited data

Results flagged for a closer look

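The contrast of C5 and C5F1 differed between adenoma and Min mucosa for 634 genes when libraries of the same background and number were treated as pairs, by edgeR's test of the interaction. The same test without pairing called 0 genes, with 808 at an unadjusted p under 0.05, so this difference between tissues rests on the pairing, which the labels do not state.

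Organoids, grown in culture and used in no comparison above, also carried the Bglap3 signal. Untreated C5 organoids had 46.9 and 26.8 CPM, against 0.147 and 0.15 CPM in untreated B6 organoids, here as counts over all gene counts of the library with no TMM scaling, so these levels are not on the scale of the tissue values. Under 5-aza-cytidine, on the same scale, Bglap3 had 36.27 and 39.75 CPM in B6 organoids and 677 and 524 CPM in C5 organoids. Treated B6 organoids thus lay within the range of untreated C5 organoids. No C5F1 organoids were analysed here, and neither the strain difference nor the treatment difference was tested.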

How the results depend on the processing

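The limits of these data are few libraries and shallow depth, so a missing call does not show equal levels. The 6 adenoma libraries held 1720480 to 5994521 counts without Rn45s, and C5F1 Min mucosa replicate 1 held 846520. With DESeq2 the adenoma contrast gave 261 calls, 225 of them off chromosome 5, and the tissue interaction 26. With the compared groups alone it gave 297 and 259, and Min mucosa 3, wild-type mucosa 5 and the midpoint 11. The replicate block fitted to the compared groups gave 283 and 247 in adenoma, 2 in wild-type mucosa and 23 at the midpoint, and 634 for the interaction. The same-number block in the adenoma contrast rests on no pairing stated in the labels, and the block over all groups gave 154 calls, 136 of them among the 139. RLE scaling (136 calls), TMM without chromosome 5 (138), no Rn45s (136) and no filter (115) stayed within 1.5 times of 139. Leaving out single libraries gave 4 to 141 calls in adenoma, 2 to 20 on chromosome 5, 2 to 121 on the others, 4 to 5 in Min mucosa, 3 to 6 in wild-type mucosa, 1 to 10 at the midpoint and 0 for the unpaired interaction. The paired interaction, in fits added after seeing the data, gave 644, 336 and 437 calls without C5 pair 1, 2 and 3 and 747, 391 and 362 without C5F1 pair 1, 2 and 3. Slc26a3 also lost its call with RLE scaling (adjusted p 0.0554) and without Rn45s (0.0511). The cause of these shifts was not tested beyond the fewer libraries in each fit.

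Some uncalled genes changed sign without single libraries: the log2 difference ran from -0.59 to 0.59 for Clps, -0.33 to 0.15 for Ctnnb1, -0.74 to 0.28 for Duox2, -0.13 to 0.62 for Duoxa2, -0.39 to 0.68 for Ereg, -0.0014 to 0.47 for Irf7, -0.39 to 0.11 for Lyz2, -0.12 to 0.25 for Mki67, -0.31 to 0.38 for Muc2, -0.16 to 0.41 for Mzb1, -0.082 to 0.037 for Slc12a2 and -0.29 to 0.45 for Vip.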
